A study of Arabidopsis thaliana with 12 samples.

Results

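EFR and BIK1 are components of the surface immune receptor pathway of Arabidopsis. Their transcripts were followed in rosette leaves 5 min after mechanical wounding. Members were the spots that the platform annotation assigned to either gene, which gave 1 spot for EFR (AT5G20480) and 1 for BIK1 (AT2G39660), 2 of 20072 genes and unnamed spots tested. Wounded leaves were set against leaves that were not wounded, both from ecotype Columbia-0 plants (Col in the labels) with no transgene or mutation named in the labels. Each sample was a pool of soil-grown plants whose leaves were crushed with a hemostat or left intact, and there were 3 biological replicates of each condition. Wounded and not wounded cRNA of a replicate shared 2-colour Agilent oligonucleotide arrays. Each replicate had 4 arrays, 2 technical replicates in both dye orientations, which made 12 arrays, 6 per orientation. The label of 1 array of replicate 3 numbers the wounded sample 4, and that array was kept in replicate 3 as titled.

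EFR is a leucine-rich repeat receptor kinase of the plasma membrane that binds a peptide of bacterial elongation factor Tu. On binding it joins the co-receptor BAK1, and the cytoplasmic kinase BIK1 is phosphorylated at this complex and released. BIK1 then phosphorylates the NADPH oxidase RBOHD. A burst of reactive oxygen, a calcium influx and a MAP kinase cascade are early responses of the pathway. U-box ubiquitin ligases hold the pathway down, WRKY factors are among its early transcriptional targets, and EFR needs chaperones of the endoplasmic reticulum to reach the membrane.

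Over all 12 arrays, the deposited log ratio was set to exactly 0 at 1129 to 2714 spots per array, and the 95th percentile of the signals there, 81.0 to 124 on the 12 arrays, is called the dim limit of an array here. The dyes differed strongly. Across all tested genes and spots, the ratios of wounded over not wounded correlated at a median r of 0.95 between arrays of a replicate that share the orientation (6 pairs), but at -0.73 between arrays of opposite orientation (12 pairs). The ratios of EFR and BIK1, and those of some other genes, are therefore also given by orientation. Of 8 leaf photosynthesis genes listed as markers of the tissue, 2 had a named spot. Rubisco activase RCA ranged over 79000 to 194000 signal units in wounded leaves and 111000 to 241000 in not wounded leaves, and the antenna protein gene LHCB4.1 over 151000 to 402000 in wounded leaves and 160000 to 632000 in not wounded leaves. RCA was lower in wounded leaves, at -0.45 on the log2 scale (limma, adjusted p = 0.041), and LHCB4.1 had -0.03 (adjusted p = 0.86), with -0.73 where Cy5 marked the wounded sample and 0.66 where Cy3 did. Their part in the results below was not tested. None of the 18 listed guard cell, epidermis, phloem or root markers had a named spot, so these cell types were not analysed here. In whole leaves, fewer cells of a type and less RNA per cell cannot be told apart.

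EFR was higher in wounded leaves than in not wounded leaves, by 1.27-fold (95% interval of the fit 1.12 to 1.45). In replicate 1, the processed signal of EFR with the wounded sample in Cy5 was 200.0 and 241 in wounded leaves against 157 and 135 in not wounded leaves, and with the dyes swapped it was 201 and 209 against 170.0 and 149. In replicate 2 it was 255 and 272 in wounded leaves against 200.0 and 250.0 in not wounded leaves, and 232 and 207 against 219 and 155 with the dyes swapped. In replicate 3 it was 212 and 205 in wounded leaves against 155 and 121 in not wounded leaves, and 194 and 177 against 183 and 176 with the dyes swapped. The wounded signal was thus the higher one on 12 of 12 arrays, whichever dye it carried, although the smallest gap was 177 against 176. A ratio above 0 on all 12 arrays was found for 7.47% of all genes and spots tested.

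**Figure D1:**
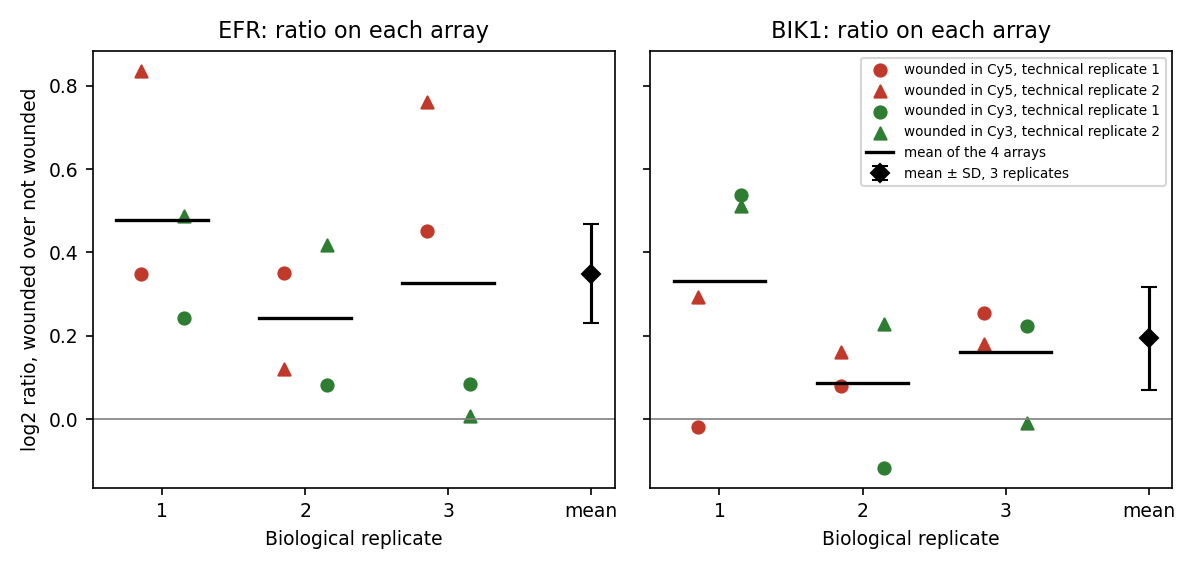
Log2 ratio of wounded over not wounded (y axis) on each array, by biological replicate (x axis), for EFR (left) and BIK1 (right). Red symbols carry the wounded sample in Cy5, green symbols carry it in Cy3, circles and triangles are technical replicates 1 and 2, black bars are means of 4 arrays, and the diamond is the mean ± SD of 3 replicates. All 12 EFR points lie above 0, down to 0.01, and 9 of 12 BIK1 points do.

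Averaged over the 4 arrays of a replicate, the log2 ratio of EFR was 0.48, 0.24 and 0.33 in replicates 1, 2 and 3, with a mean of 0.35 ± 0.12 (SD, n = 3). Tested against 0 with limma over the 3 replicates, this gave an adjusted p of 0.041 by Benjamini-Hochberg over all genes and spots (unadjusted p = 0.0050). At the same threshold, an adjusted p under 0.05, 7.25% of all genes and spots were higher and 7.24% lower, so that a single call of this kind is common on these arrays. The ratio of EFR was exceeded by 8.04% of all genes and spots. The call was close to the threshold, and it was lost without replicate 1 (adjusted p = 0.055), without replicate 2 (0.14) or without replicate 3 (0.14), where the log2 ratio was 0.28, 0.40 and 0.36. With the pairing of the channels set aside, 3 wounded against 3 not wounded mean signals gave the same ratio of 0.35 with an adjusted p of 1.00 (unadjusted p = 0.11).

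The size of the EFR difference varied between dye orientations, though the gap did not pass its test. The ratio averaged 0.48 in the Cy5 orientation (wounded sample in Cy5) and 0.22 in the Cy3 orientation on the log2 scale, a gap of 0.26 ± 0.13 (SE) in a fit of the 12 arrays singly (adjusted p = 0.094 from limma). In replicate 2 the orientations gave 0.24 and 0.25. In replicate 3 they gave 0.61 and 0.05, and in replicate 1 0.59 and 0.36. The Cy5 orientation alone passed the test (adjusted p = 0.049 from limma) and the Cy3 orientation alone did not (log2 ratio 0.22, 95% interval -0.08 to 0.52, adjusted p = 0.19). Technical replicates 1 and 2 gave 0.30 and 0.66 in replicate 1, 0.22 and 0.27 in replicate 2, and 0.27 and 0.38 in replicate 3.

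Within a single dye the EFR signals of the conditions overlapped. In Cy5 the wounded leaves had a lowest, median and highest signal of 200.0, 226.5 and 272, against 149, 173 and 219 in not wounded leaves. In Cy3 they were 177, 204 and 232 in wounded leaves, against 121, 156 and 250.0 in not wounded leaves. The 1 EFR signal that did not exceed its array's dim limit was the 121 of a not wounded sample in replicate 3, where that limit was 122. EFR was thus a weakly lit spot. Leaving out that array and its dye swap, the array with the differing label, on which the EFR signals were 177 and 176, gave a log2 ratio of 0.33 and an adjusted p of 0.057 from limma.

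**Figure D2:**
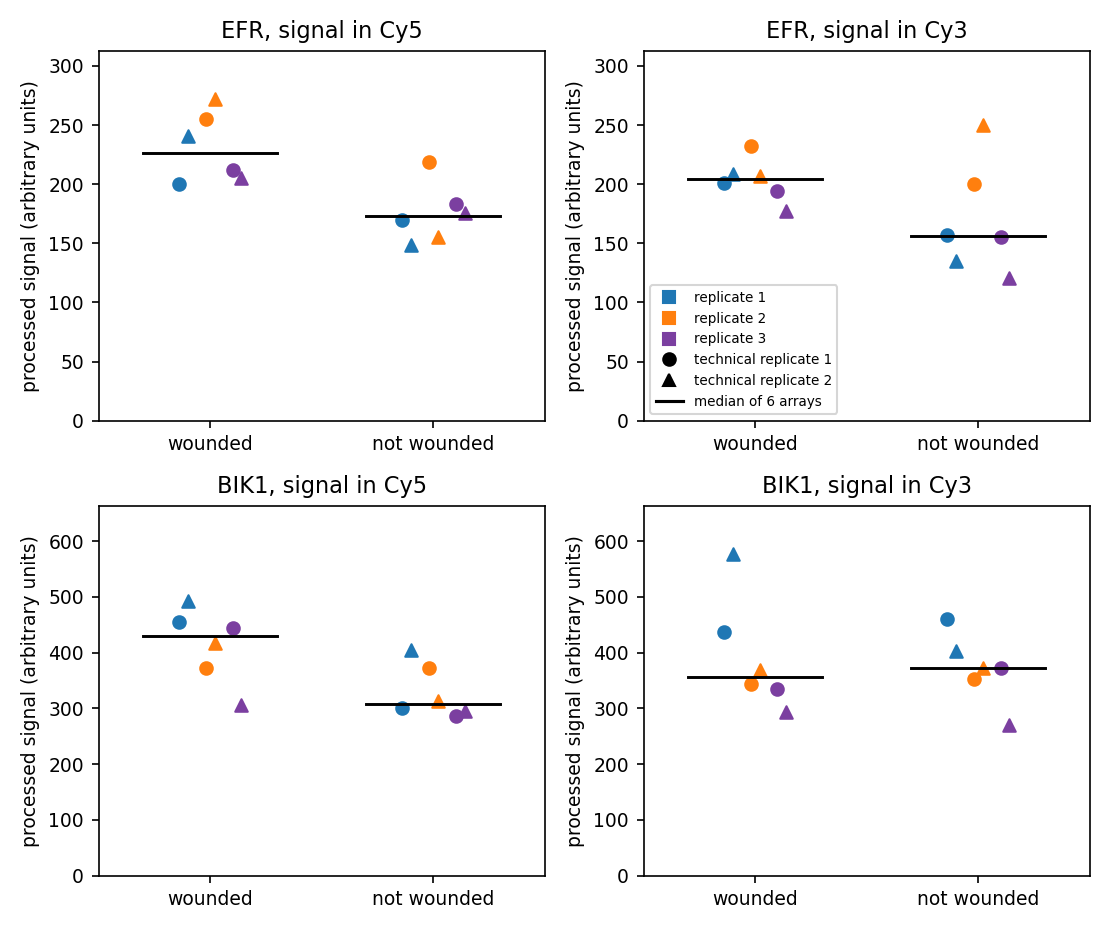
Processed signal in arbitrary units (y axis, from 0) of EFR (top) and BIK1 (bottom) in wounded and not wounded leaves, with the Cy5 channel on the left and the Cy3 channel on the right. Points are the 6 arrays of each condition and dye, colours are biological replicates and black bars are medians. The EFR medians were 226.5 against 173 in Cy5 and 204 against 156 in Cy3, while the BIK1 medians were 430.5 against 307.5 in Cy5 and 356 against 372.5 in Cy3.

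BIK1, the cytoplasmic kinase next to the receptor, did not pass the test. In replicate 1 its signal was 455 and 493 in wounded leaves against 461 and 402 in not wounded leaves with the wounded sample in Cy5, and 437 and 577 against 301 and 405 with the dyes swapped. In replicate 2 it was 373 and 417 in wounded leaves against 353 and 373 in not wounded leaves, and 344 and 368 against 373 and 314 with the dyes swapped. In replicate 3 it was 444 and 306 in wounded leaves against 372 and 270.0 in not wounded leaves, and 334 and 293 against 286 and 295 with the dyes swapped. The wounded signal was the higher one on 9 of 12 arrays, and each replicate held 1 array on which it was the lower one. A ratio above 0 on at least 9 arrays was found for 17.5% of all genes and spots.

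The log2 ratio of BIK1 was 0.33, 0.09 and 0.16 in replicates 1, 2 and 3, with a mean of 0.19 ± 0.12 (SD, n = 3), which is 1.14-fold (95% interval 1.00 to 1.30). The adjusted p was 0.14 from limma (unadjusted p = 0.045), and 18.6% of all genes and spots had a higher ratio. Its SD was close to that of EFR, at a smaller ratio. The orientations were close for BIK1, with 0.16 in the Cy5 orientation and 0.23 in the Cy3 orientation (gap -0.07 ± 0.11 SE, adjusted p = 0.59 from limma). Replicate 1 was the exception, at 0.14 and 0.52. Its signals were above the dim limit in both channels of all 12 arrays. In Cy3 the lowest, median and highest signal was 293, 356 and 577 in wounded leaves, against 270.0, 372.5 and 461 in not wounded leaves, so that there the median ran the other way from the mean ratio. In Cy5 it was 306, 430.5 and 493 in wounded leaves, against 286, 307.5 and 405 in not wounded leaves.

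The levels of the pair by replicate did not share an order. The mean EFR signal (geometric, over 4 arrays) in replicates 1, 2 and 3 was 212, 240.2 and 196 in wounded leaves and 152, 203 and 157 in not wounded leaves, highest in replicate 2 in both conditions. That of BIK1 was 488, 375 and 340 in wounded leaves and 388, 352 and 303 in not wounded leaves, highest in replicate 1. Over all replicates it was 216 against 169 for EFR and 396 against 346 for BIK1. On the log2 scale the SD between replicates was 0.15 in wounded and 0.23 in not wounded leaves for EFR, and 0.27 and 0.18 for BIK1.

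The ratios of the pair, in contrast, shared an order between replicates. The log2 ratio of EFR exceeded that of BIK1 by 0.15, 0.15 and 0.16 in replicates 1, 2 and 3, a mean of 0.16 with an SD of 0.01. That SD rests on 3 values, while the SD over the 4 arrays of a replicate was 0.12 to 0.35 for either gene. Both were highest in replicate 1 and lowest in replicate 2. Replicate 1 was also highest for 18 of the 21 pathway genes tested below and for 41.6% of all genes and spots. The shared order is therefore not particular to the pair. On single arrays the order was less regular, and EFR had the higher ratio on 8 of 12. With the ratios centred within each dye orientation, EFR and BIK1 had a Pearson r of 0.55 over the 12 arrays, which share 3 pairs of RNA pools and are not independent. The named genes most like either of them, none in the pathway lists, had an r of 0.80 to 0.92. The difference between the genes was not tested.

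The genes whose centred ratios followed EFR most closely over the 12 arrays, among 8733 other named genes, were the expansin gene EXPB1 (r = 0.89), AT3G26020 (0.84), AT5G59450 (0.80) and AT3G07900 (0.80). Their mean log2 ratios differed in direction, with -0.51 for EXPB1 and 1.04 for AT3G26020 (both passed, adjusted p = 0.016 and 0.032 from limma), although AT3G26020 was higher in wounded leaves on only 6 of 12 arrays, and 0.37 for AT5G59450 and -0.11 for AT3G07900 (adjusted p = 0.059 and 0.48). For BIK1 they were AT5G09890 (r = 0.92), the wax and cuticle gene RST1 (0.90), the nucleoporin gene NUP155 (0.90) and AT2G47960 (0.88). Their mean log2 ratios were 0.01, 0.04, 0.12 and -0.54, of which only that of AT2G47960 passed (adjusted p = 0.015 from limma). None of these 8 genes is in the pathway lists below. The r values describe how arrays of the same RNA pools vary together, not the mean response to wounding.

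The rest of the pathway was read from 8 lists of genes with known roles, 106 genes in all, of which 22 had a named spot and 21 were tested. FLS2, BAK1, RBOHD and MPK3 are among those that had none and are not analysed here, and so are all 6 listed co-receptors and all 24 listed signalling components. Of the 20072 genes and spots tested, 11338 carried no single gene name. A gene without a named spot may therefore still have been measured, and the paper lists FLS2 and MPK3 among its rapid wound response genes. Of the 21 tested genes, 3 (14.3%) passed as higher and 1 (4.76%) as lower, against 7.25% and 7.24% of all genes and spots. Before adjustment (p under 0.05) the counts were 9 higher and 2 lower of 21, against 16.6% and 16.4% of all genes and spots. The median log2 ratio of the 21 was 0.14, against 0.00 over all genes and spots.

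**Figure D3:**
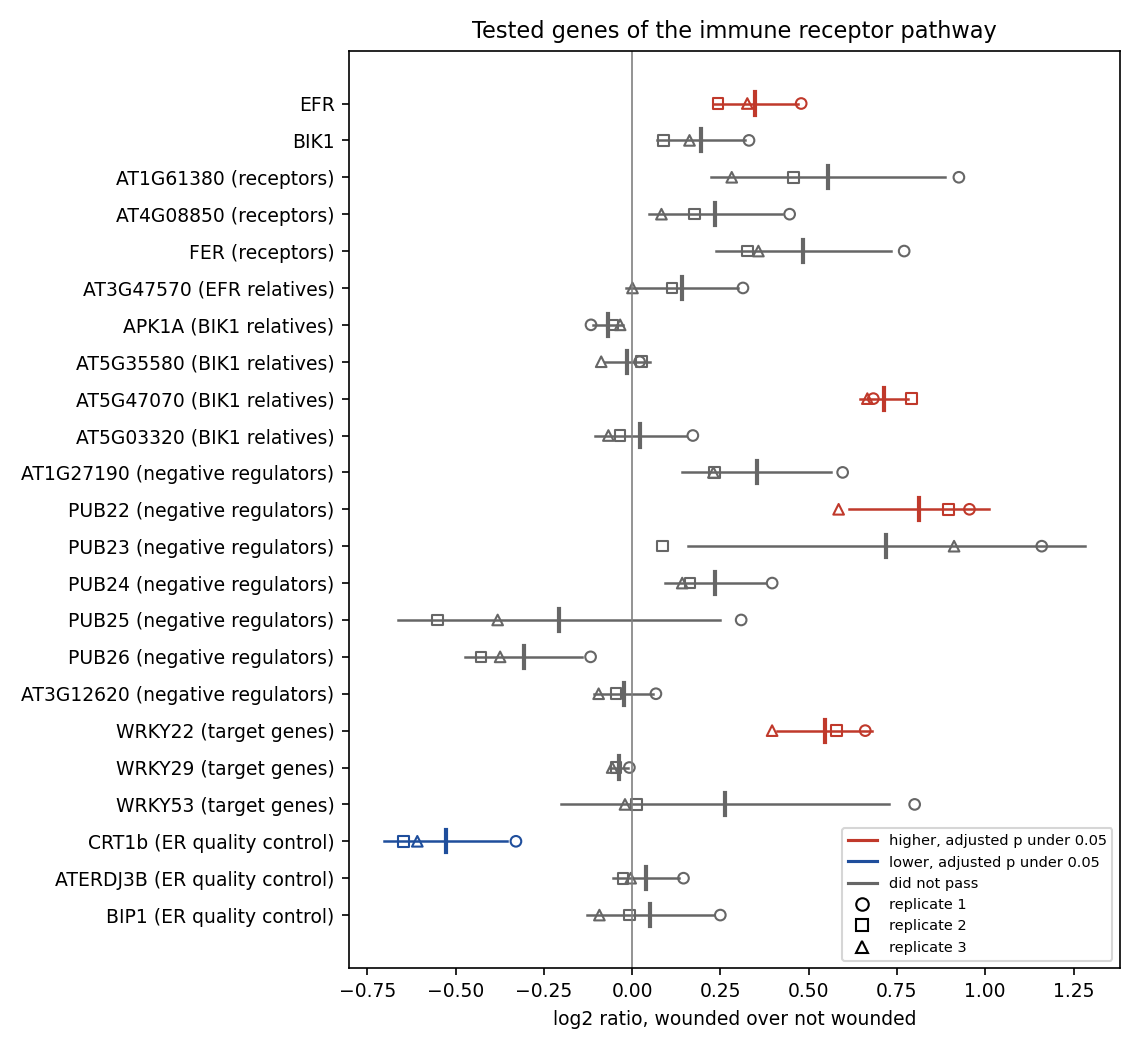
Log2 ratio of wounded over not wounded (x axis) for EFR, BIK1 and the 21 tested pathway genes (y axis, with the list each stands in). Open symbols are the 3 biological replicates, vertical ticks are means and horizontal lines show ± SD. Red genes were higher and blue genes lower at an adjusted p under 0.05 from limma, and grey genes did not pass. Replicate 1 (circles) has the highest ratio in 18 of the 21 listed genes.

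Among receptors, 3 of 17 listed genes were tested and 0 passed in limma, although all 3 were higher at an unadjusted p under 0.05, as were 16.6% of all genes and spots. FERONIA (FER), a receptor kinase for peptides that also scaffolds immune receptor complexes, had a log2 ratio of 0.77, 0.33 and 0.36 in the 3 replicates (mean 0.48 ± 0.25 SD, adjusted p = 0.051 from limma) and a higher signal in wounded leaves on 12 of 12 arrays. Its signal ranged over 1590 to 3580 (median 2605) in wounded leaves and 1260 to 2320 (median 1895) in not wounded leaves. FER was therefore further from 0 than EFR in its mean but did not pass, with the wider spread. AT1G61380, an S-domain receptor kinase that senses bacterial fatty acids, had a log2 ratio of 0.93, 0.46 and 0.28 (adjusted p = 0.063 from limma). It turned with the dye, with 1.75 in the Cy5 and -0.64 in the Cy3 orientation, and the wounded signal was at or below the dim limit on 6 arrays and the not wounded signal on 7, so its direction is uncertain. AT4G08850, which has no symbol in the gene table used, had 0.24 (adjusted p = 0.15 from limma). The 1 tested gene of 5 listed EFR relatives, AT3G47570, had 0.14 (adjusted p = 0.29 from limma), with 0.31, 0.11 and 0.00 in the 3 replicates.

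Among BIK1 relatives, 4 of 14 listed genes were tested, and 1 was higher. AT5G47070, which the gene table leaves without a symbol, had a log2 ratio of 0.68, 0.79 and 0.67 in the 3 replicates (mean 0.71 ± 0.07 SD, adjusted p = 0.013 from limma), 1.64-fold. Its signal ranged over 499 to 1550 (median 1165) in wounded leaves and 276 to 1120 (median 667) in not wounded leaves, and was the higher one in wounded leaves on 11 of 12 arrays. The rise was 1.097 in the Cy5 orientation and 0.33 in the Cy3 orientation, where it did not pass alone (adjusted p = 0.20 from limma), nor did it without replicate 2 (0.060). The protein kinase gene APK1A had a log2 ratio of -0.07, AT5G35580 -0.01 and AT5G03320 0.02 (adjusted p of 0.46 to 0.90 from limma). All 3 turned with the dye, with -0.22 in the Cy5 and 0.09 in the Cy3 orientation for APK1A, -0.58 and 0.55 for AT5G35580, and 0.17 and -0.12 for AT5G03320. AT5G35580 was at or below the dim limit in the wounded channel of 9 arrays and the not wounded channel of 8.

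Among negative regulators, 7 of 14 listed genes were tested, 1 was higher and 0 were lower in limma, with 4 and 1 at an unadjusted p under 0.05, where 16.6% and 16.4% of all genes and spots lay. The 4 include PUB23 and a ubiquitin ligase gene not named here, both dim spots that turned with the dye. The latter had 2.9 in the Cy5 and -2.4 in the Cy3 orientation. PUB22, a U-box ubiquitin ligase that dampens immune signalling, had a log2 ratio of 0.96, 0.90 and 0.58 in the 3 replicates (mean 0.81 ± 0.20 SD, adjusted p = 0.017 from limma), 1.76-fold. Its signal was the higher one in wounded leaves on 12 of 12 arrays and ranged over 272 to 917 (median 399.5) in wounded leaves and 167 to 782 (median 214.5) in not wounded leaves. The ratio was 1.19 in the Cy5 and 0.44 in the Cy3 orientation, and did not pass in the Cy3 orientation alone (adjusted p = 0.057 from limma) or without replicate 2 (0.069). Its close relative PUB23 had a mean of 0.72 ± 0.56 (SD, n = 3, adjusted p = 0.096 from limma), but with 3.45 in the Cy5 and -2.01 in the Cy3 orientation at a dim spot. PUB26, which marks BIK1 for degradation, had -0.12, -0.43 and -0.37 in the 3 replicates (mean -0.31, adjusted p = 0.076 from limma), with a lower signal in wounded leaves on all but 1 array. AT1G27190, without a symbol in the gene table, had 0.60, 0.23 and 0.23 (mean 0.35, adjusted p = 0.077 from limma), with a higher signal in wounded leaves on 12 of 12 arrays. That mean is close to that of EFR, at a wider spread.

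Among targets, 3 of 12 listed genes were tested and 1 was higher. WRKY22, a transcription factor induced through immune receptors, had 0.66, 0.58 and 0.40 in the 3 replicates (mean 0.55 ± 0.14 SD, adjusted p = 0.021 from limma), 1.46-fold, and was higher in wounded leaves on 12 of 12 arrays, with signals of 967 to 1560 (median 1200) in wounded and 635 to 1190 (median 818) in not wounded leaves. The ratio was 0.71 in the Cy5 and 0.38 in the Cy3 orientation. WRKY22 missed the threshold without replicate 2 (limma, adjusted p = 0.11), in the Cy3 orientation alone (0.062) and without the array of the differing label (0.069). With the whole dye-swap pair of that array left out, WRKY22 still passed (log2 ratio 0.54, adjusted p = 0.026 from limma). WRKY29, which acts beside WRKY22, had -0.01, -0.05 and -0.06 (adjusted p = 0.69 from limma). WRKY53 had 0.80 in replicate 1 and 0.01 and -0.02 in the others (adjusted p = 0.38 from limma).

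Among chaperones and other factors of quality control in the endoplasmic reticulum, 3 of 14 listed genes were tested and 1 was lower. CRT1b, a calreticulin that binds folding glycoproteins, fell by 0.53 on the log2 scale, with -0.33, -0.65 and -0.61 in the 3 replicates (SD 0.17, adjusted p = 0.027 from limma). Its signal ranged over 234 to 861 (median 637.5) in wounded leaves and 334 to 1190 (median 942.5) in not wounded leaves. The fall rested on the Cy3 orientation, with -0.997 there and -0.06 in the Cy5 orientation. Its call was lost when replicate 2 (limma, adjusted p = 0.12) or replicate 3 (0.095) was left out, or the array of the differing label (0.12). With the whole dye-swap pair of that array left out, CRT1b still passed (log2 ratio -0.50, adjusted p = 0.033 from limma). The chaperone genes ATERDJ3B and BIP1, whose products help EFR fold or belong to the same complex, had 0.04 and 0.05 (adjusted p = 0.72 and 0.73 from limma). ATERDJ3B turned with the dye, with -0.25 in the Cy5 and 0.32 in the Cy3 orientation.

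Replicate 1 had the highest ratio for EFR and BIK1 and for 18 of the 21 tested pathway genes (85.7%), against 41.6% of all genes and spots. The exceptions were APK1A and AT5G47070, highest in replicates 3 and 2, and AT5G35580, highest in replicate 2. A dye effect at an adjusted p under 0.05 (limma on the 12 arrays singly) was found for 12 of the 21 and for 63.4% of all genes and spots, and 4 of them had a signal at or below the dim limit on at least 1 array.

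**Figure D4:**
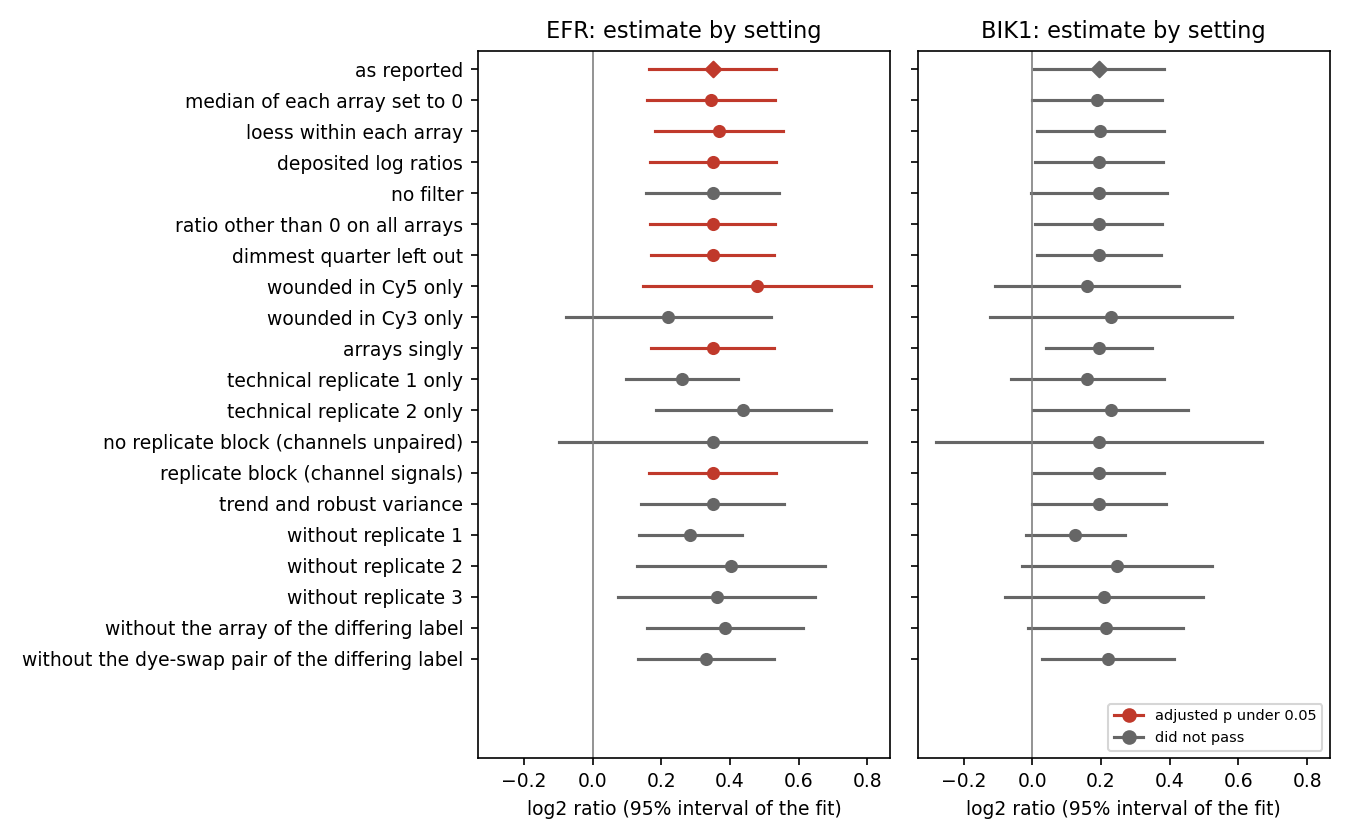
Log2 ratio of wounded over not wounded with its 95% interval (x axis) for EFR (left) and BIK1 (right) under each setting (y axis). Red settings passed an adjusted p under 0.05 from limma and grey settings did not. EFR stays between 0.22 and 0.48 and passed under 8 of 19 alternatives, and BIK1 stays between 0.13 and 0.25 and passed under 0 of 19.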

How the data were processed

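Spot values came from Agilent Feature Extraction 8.1, run by the authors with background subtraction and a scaling of the dyes on housekeeping genes. The deposited intensities of Cy5 and Cy3 at 22575 spots were used as they are. The deposited log10 ratios of the same arrays (Pearson r of at least 0.99999 with those of the intensities at spots neither limited nor set to 0) served as a filter and an alternative. Control spots were not removed, and the authors' Rosetta Resolver error model was not used. Log2 ratios of wounded over not wounded, with direction from the channel labels, were averaged over 4 arrays per biological replicate, then over spots of a gene. A spot was kept if each of 6 dye-swap pairs had an array with a ratio other than 0. For the test of each mean against 0, limma 3.58.1 (R 4.3.3, lmFit and eBayes) was run on n = 3. The replicate number pairs the channels, which share an array. The fit was also run on simulated data, and no result here rests on that run. The number of biological replicates, 3, limits precision.

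Names came from the platform annotation, updated by Entrez identifier (TAIR10.1 table, 9317 of 9335 spots matched). Members and lists were chosen with earlier results of these data known. Named are EFR, BIK1, every tested gene of a list with 6 or fewer tested, otherwise the 4 with the smallest p and those that passed, and 4 genes most like each member. Alternatives were other normalizations, filters, values, dye orientations, units of replication, pairings and variance models, and arrays and replicates left out.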

Additional observations from a re-analysis of the deposited data

Results flagged for a closer look

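Of 40 groups of 6 arrays of 1 dye orientation, taken for EFR, BIK1 and the named pathway genes, 1 held an array far from the others. The log2 ratio of PUB23 was 5.51 on the array of replicate 3, technical replicate 2, with the wounded sample in Cy5, against 2.58 to 3.57 on the other 5 arrays of that orientation. The gap took 0.66 of the range, above the critical value of Dixon's test, which chance passes in about 1 group of 20. Neither EFR nor BIK1 had such an array.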

How the results depend on the processing

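EFR kept its direction under all 19 alternatives. Its call was lost at a log2 ratio of 0.35 with no filter (adjusted p = 0.058 from limma), with a trended robust variance (0.058) and with channels as unpaired groups, that is with no replicate block (1.00). It was also lost at 0.22 with the wounded sample in Cy3 only, at 0.26 and 0.44 with technical replicate 1 or 2 only, at 0.38 without the array of the differing label, which leaves replicate 3 with unequal dyes, at 0.33 without its dye-swap pair (chosen after seeing the data), and at 0.28 to 0.40 without a replicate. Channel signals with the replicate as a block gave the paired result again (0.35, adjusted p = 0.041) and changed no call. BIK1 passed under 0 of 19, with adjusted p of 0.056 to 1.00.

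The counts of pathway genes higher and lower (3 and 1) were 7 and 2 with arrays fitted singly, 0 and 0 unpaired (limma, 4 and 0 at an unadjusted p under 0.05), and 1 (without replicate 2) to 4 and 0 (without replicate 2 or 3) to 3 without a replicate. With loess 5 were higher, with Cy5 only 7 were higher, and with Cy3 only 4 were lower. Without the array of the differing label 0 were lower (limma, 2 at an unadjusted p under 0.05). Without its whole dye-swap pair 4 were higher and 1 was lower. Over all genes and spots, the counts were 1455 higher and 1454 lower, and 1468 and 1496 with loess. With Cy5 only they were 2837 and 3145, and with Cy3 only 3847 and 3234. Arrays fitted singly gave 3095 and 3046, and unpaired channels 27 and 0 (limma, 583 and 278 at an unadjusted p under 0.05). Without the array of the differing label they were 173 and 82, but without its whole dye-swap pair 1327 and 1280. Technical replicate 2 only gave 961 lower. Without a replicate they were 139 to 1479 higher and 51 to 1683 lower, the lowest without replicate 2. For counts and losses not named above the cause was not tested. EFR was at or below the dim limit in the not wounded channel of 1 array and the wounded channel of 0. With the dimmest 25% left out, EFR was still tested and passed (log2 ratio 0.35, adjusted p = 0.030 from limma). Whether signals near the dim limit affected the EFR result was not tested further. The 3 replicates limit precision for both genes.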
